A study of Homo sapiens with 6 samples.

Results

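The genes described here encode 10 transcription factors, many of which cells switch on early after stimulation. These are the FOS family (FOS, FOSB, FOSL1 and FOSL2), the JUN family (JUN, JUNB and JUND), ATF3, EGR1 and MYC. They were listed by name, with no threshold on their values, though with earlier results of these data known. All 10 were listed once among the 32679 genes of the expression table, and 9 passed the filter used for testing, a mean of at least 1 FPKM over the 6 samples. FPKM counts sequenced fragments per kilobase of a gene's transcript relative to all fragments mapped in that library. FOSB did not pass and is given by its values only.

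The RNA came from HEY cells, a human ovarian cancer cell line, and the study asked how expression and splicing change when PQBP1, a splicing-related protein, is depleted. The 3 shNC samples carried a control hairpin and are labelled as untreated. The 3 shPQBP1 samples carried a hairpin against PQBP1 and received doxycycline at 1 µg/ml, which switches on inducible hairpins. All 6 samples are labelled day 3, and by the study's methods both lines were stable lines made by lentiviral infection. Because only the shPQBP1 samples received doxycycline, the hairpin and the drug cannot be told apart. The design text calls the samples biological triplicates, and nothing used here says whether they were separate infections.

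PQBP1 itself was 7.18, 6.67 and 6.93 FPKM in the shNC samples and 1.68, 1.72 and 1.44 FPKM in the shPQBP1 samples. It fell by 2.04 on the log2 scale (limma, adjusted p = 0.00154), in the direction of the labels. Total FPKM ran from 294970.3 to 318484.3 in shNC and from 278285.8 to 287422.6 in shPQBP1, so every shPQBP1 total was lower, while the median-of-ratios factors of the 6 samples stayed between 0.982 and 1.01. Between 26.5 and 29.8% of genes were at 0. Of 9 markers for the line, the keratins KRT7 (55.04 to 70.35 FPKM), KRT8 (52.76 to 65.61 FPKM) and KRT18 (76.56 to 94.56 FPKM), the Müllerian factor PAX8 (12.33 to 24.08 FPKM) and the mesenchymal filament vimentin (1112 to 1343 FPKM) were present. The epithelial adhesion gene EPCAM (0.79 to 1.13 FPKM), KRT19 (1.19 to 2.1 FPKM) and WT1 (0.31 to 0.71 FPKM) were low, and the ovarian cancer antigen MUC16 was at most 0.01 FPKM in every sample. Leukocyte markers summed to 9.12 to 15.66 FPKM in shNC and 12.14 to 21.19 FPKM in shPQBP1, nearly all of it CD68, a lysosomal gene, with the pan-leukocyte gene PTPRC at 0 in all samples. Of the other lists, the 5 fibroblast markers summed to between 0.21 and 0.83 FPKM, and the 4 endothelial markers summed to 2.43 to 3.29 FPKM in shNC and 3.25 to 3.91 FPKM in shPQBP1. Most of the endothelial sum was CDH5, 2.11 to 2.96 FPKM in shNC and 3.1 to 3.64 FPKM in shPQBP1. PECAM1 went the other way, from 0.23 to 0.25 FPKM in shNC to 0.02 to 0.06 FPKM in shPQBP1, and VWF and KDR overlapped between the groups.

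AP-1 is a pair of basic leucine zipper proteins joined through their zippers. JUN proteins can pair with each other or with FOS proteins, whereas FOS proteins need a JUN partner to bind DNA, and ATF3 can pair with JUN proteins. The dimers bind the sequence TGACTCA and, with ATF partners, the longer cyclic AMP response element TGACGTCA. EGR1 is a zinc finger factor that binds GC-rich sites, and MYC binds E-boxes (CACGTG) with its partner MAX. Growth factor and stress kinases raise the mRNAs of many of these genes early after stimulation, after which many are degraded quickly. In carcinoma cells FOSL1 and JUN are often the leading AP-1 members.

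The levels of the 10 genes spanned from 0.21 FPKM, the lowest value of FOSB, to 275.5 FPKM, the highest of FOSL1. FOSL1 was the highest with a mean of 240.4 FPKM over the 6 samples, and 1.03% of tested genes were higher. JUN followed with 111.8 FPKM, and 2.58% of tested genes were above it. EGR1 (29.66 FPKM) and FOSL2 (26.11 FPKM) came next, and their ranges over the 6 samples overlapped. JUNB (13.78 FPKM) and JUND (9.427 FPKM) overlapped in turn, while the other neighbours in this order, MYC aside, did not. The mean of MYC, 8.655 FPKM, stands for no sample, because its values split far apart. ATF3 averaged 4.93 FPKM, close to the middle of tested genes, since 53.9% of them were higher. FOS, the founding member, was at 1.457 FPKM with 90.1% of tested genes above it, and FOSB averaged 0.5617 FPKM.

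**Figure D1:**
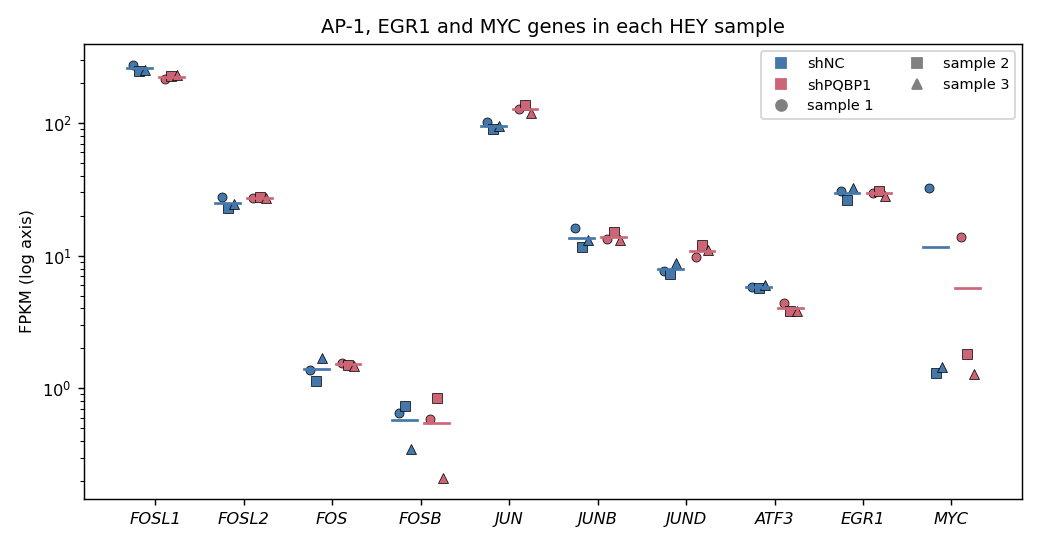
FPKM of the 10 genes (log axis) in each of the 6 HEY samples, 1 point per sample, with shNC and shPQBP1 in separate colours, the sample numbers as marker shapes and a line at each group's mean. FOSL1 and JUN stand highest, FOSB lowest, and MYC is the gene whose points part by sample number, with both samples numbered 1 at 32.12 and 13.95 FPKM above the other 4.

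Between the groups, 1 of the 9 tested genes passed the adjusted threshold of 0.05 in limma, ATF3, which was lower in shPQBP1. Over all 11413 tested genes the same threshold called 2.91%, made up of 1.73% higher and 1.18% lower in shPQBP1. None of the 9 exceeded a 2-fold change with an unadjusted p under 0.05, a rule that called 1.52% of all tested genes. At an unadjusted p under 0.05 alone there were 4 members, JUN and JUND (higher) and ATF3 and FOSL1 (lower), beside 23.6% of all tested genes. Those 4 were also the members whose groups did not overlap, a pattern found in 34.4% of all tested genes. The median log2 fold change of the 9 was 0.04, beside 0.02 for all tested genes. In RNA from many cells together, fewer cells with a transcript and less of it per cell cannot be told apart.

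**Figure D2:**
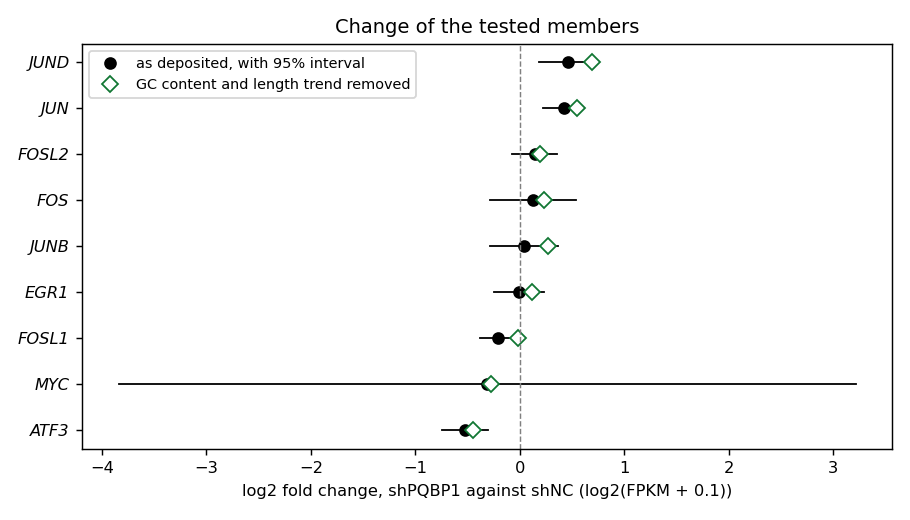
Log2 fold change of shPQBP1 against shNC on the log2(FPKM + 0.1) scale for the 9 tested genes, with 95% confidence intervals from limma. ATF3 lies lowest of the genes with narrow intervals at -0.53, JUN and JUND lie above 0 at 0.42 and 0.46, and the interval of MYC runs from -3.84 to 3.21.

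The FOS family in these cells was almost wholly FOSL1. FOSL1 (ENSG00000175592, 4 exons, hg38 chr11:65892049-65900573, minus strand) encodes FRA1, a FOS protein without the strong activation domain of FOS itself. It was 275.5, 245.72 and 253.05 FPKM in shNC and 213.42, 225.74 and 229.08 FPKM in shPQBP1. All shPQBP1 samples were under all shNC samples, but by little: the log2 fold change was -0.21 (SE 0.07, 95% interval -0.38 to -0.04), which did not pass after adjustment (limma, adjusted p = 0.147). With the trend of values on GC content and gene length removed from each sample, the difference of FOSL1 was -0.02 (limma, adjusted p = 0.862). Such a trend ran through the whole table, with a Spearman rho of -0.459 between fold change and GC content across 11385 genes that share the same 6 libraries. FOSL1 has a GC content of 58.7%, where the median tested gene has 47.5%.

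FOSL2 (ENSG00000075426, 4 exons, chr2:28392448-28417317, plus strand) encodes FRA2, the closest relative of FRA1. It was 27.48, 22.73 and 24.44 FPKM in shNC and 27.35, 27.65 and 27.02 FPKM in shPQBP1. The shPQBP1 samples were close together, near the highest shNC sample, and the groups overlapped. The log2 fold change of 0.14 (SE 0.09, interval -0.08 to 0.36) did not pass (limma, adjusted p = 0.362). FOS (ENSG00000170345, 4 exons, chr14:75278826-75282230, plus strand) was 1.37, 1.13 and 1.7 FPKM in shNC and 1.56, 1.51 and 1.47 FPKM in shPQBP1. The groups overlapped, with a log2 fold change of 0.12 (SE 0.17, interval -0.29 to 0.53; limma, adjusted p = 0.669). FOSB (ENSG00000125740, 4 exons, chr19:45467995-45475179, plus strand) was 0.65, 0.73 and 0.35 FPKM in shNC and 0.59, 0.84 and 0.21 FPKM in shPQBP1, so its groups overlapped too. FOSB lies inside the span of ERCC1 on the opposite strand, which was 9.82 to 12.95 FPKM. Whether the authors' counting used strand is not given in the sources used here, so reads of the pair may not be separable.

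In the JUN family, JUN and JUND were higher in every shPQBP1 sample but short of the adjusted threshold, and JUNB overlapped between the groups. JUN (ENSG00000177606, a single exon, chr1:58776845-58784048, minus strand) is the strongest activator of the family. It was 102.39, 90.38 and 94.47 FPKM in shNC and 128.33, 136.27 and 118.99 FPKM in shPQBP1. The groups did not overlap, and the log2 fold change was 0.42 (SE 0.08, interval 0.22 to 0.62), or 1.34-fold (limma, adjusted p = 0.0557). JUN did pass without shNC sample 1 (adjusted p = 0.0422), after quantile normalization (0.027), among genes of at least 10 FPKM (0.0452), and with the GC and length trend removed (0.55 on the log2 scale, adjusted p = 0.00862), all in limma. JUN did not pass with median-of-ratios scaling (limma, adjusted p = 0.0719), with genes above 0 (0.117), with the replicate block (0.251) or without both samples numbered 1 (0.119). Of the 6 fits that left out 1 sample, only 1 passed, and the adjusted p reached 0.198 (limma).

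JUND (ENSG00000130522, a single exon, chr19:18279694-18281622, minus strand) is the family member present in most resting cells and the one that can slow growth. It was 7.68, 7.29 and 8.79 FPKM in shNC and 9.83, 12.01 and 10.96 FPKM in shPQBP1. Every shPQBP1 sample was above every shNC sample, and the log2 fold change of 0.46 (SE 0.11, interval 0.18 to 0.74; limma, adjusted p = 0.0897) was similar in size to that of JUN. At 69.9% JUND had the highest GC content of the 10 genes, and with the GC and length trend removed its difference was 0.69 (limma, adjusted p = 0.0425). JUNB (ENSG00000171223, a single exon, chr19:12791486-12793315, plus strand), which often opposes JUN, was 16.04, 11.69 and 13.18 FPKM in shNC and 13.44, 15.16 and 13.16 FPKM in shPQBP1. These groups overlapped, with a log2 fold change of 0.04 (SE 0.13, interval -0.29 to 0.36; limma, adjusted p = 0.872), against 0.27 (adjusted p = 0.0436) with the trend removed. HOOK2, on the opposite strand across JUNB, was under 1 FPKM in all samples.

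The promoters of JUN and JUND are shown because JUN proteins act on both genes and because both genes were higher in every shPQBP1 sample. Each runs from 250 bases before to 50 bases after the start site in RefSeq (GRCh38.p14), on the gene's own strand, and 8 of the 10 genes were searched. Capitals mark matches to the searched motifs. In JUN (chr1:58783998-58784297, minus strand) they are the distal octamer TTACCTCA at -186 to -179 and the proximal octamer TGACATCA at -67 to -60 from the start, the sites named from work on this gene. In JUND (chr19:18281573-18281872, minus strand) the capitals mark the cyclic AMP response element TGACGTCA at -200 to -193.
JUN: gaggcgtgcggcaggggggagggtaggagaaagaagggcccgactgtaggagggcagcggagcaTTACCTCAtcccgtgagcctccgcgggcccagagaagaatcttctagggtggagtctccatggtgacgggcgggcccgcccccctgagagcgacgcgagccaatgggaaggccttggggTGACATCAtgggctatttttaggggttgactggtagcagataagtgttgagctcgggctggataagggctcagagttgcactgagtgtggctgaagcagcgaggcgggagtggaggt
JUND: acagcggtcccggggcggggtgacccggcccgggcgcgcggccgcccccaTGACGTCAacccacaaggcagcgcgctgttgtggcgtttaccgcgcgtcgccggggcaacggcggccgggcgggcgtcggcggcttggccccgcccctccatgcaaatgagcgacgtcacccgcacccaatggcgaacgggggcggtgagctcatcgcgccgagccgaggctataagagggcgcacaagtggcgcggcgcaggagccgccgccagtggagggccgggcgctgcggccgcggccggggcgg
The search covered both strands. Among 35116 promoters of the same length, TGACATCA or its reverse TGATGTCA stood in 2.61%, TTACCTCA or TGAGGTAA in 0.715%, TGACGTCA in 1.85%, and TGACTCA or TGAGTCA in 4.95%. These matches describe the letters in the window and do not show binding in HEY cells. FOSL2 held 1 match to TGACTCA, 5 to 11 bases after its start, and no AP-1 match of these kinds stood in the windows of FOS, FOSB or JUNB.

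Because the FOS and JUN families pair, their summed levels were set side by side. The 4 FOS family genes summed to 305, 270.3 and 279.5 FPKM in shNC and 242.9, 255.7 and 257.8 FPKM in shPQBP1. The 3 JUN family genes summed to 126.1, 109.4 and 116.4 FPKM in shNC and 151.6, 163.4 and 143.1 FPKM in shPQBP1. Both sums parted the groups without overlap, in opposite directions, and each sum is mostly 1 gene, FOSL1 or JUN. Among single tested genes, 34.4% parted the groups in this way. With the GC and length trend removed, the log2 difference was -0.02 for FOSL1 (limma, adjusted p = 0.862) and 0.55 for JUN (0.00862). The sums and ratios here are of the values as deposited, with that trend left in. FOSL1 made up 90.3, 90.9 and 90.5% of the FOS family in shNC and 87.9, 88.3 and 88.9% in shPQBP1, while FOSL2 made up 8.41 to 9.01% and 10.5 to 11.3%. JUN made up 81.1 to 82.6% of its family in shNC and 83.1 to 84.7% in shPQBP1. The ratio of JUN to FOSL1, taken within each sample, was 0.372, 0.368 and 0.373 in shNC and 0.601, 0.604 and 0.519 in shPQBP1. The ratio was nearly constant in shNC, although both genes were highest there in sample 1. These ratios concern mRNA levels per transcript length. They were computed with the separate results of JUN and FOSL1 known and carry no test.

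**Figure D3:**
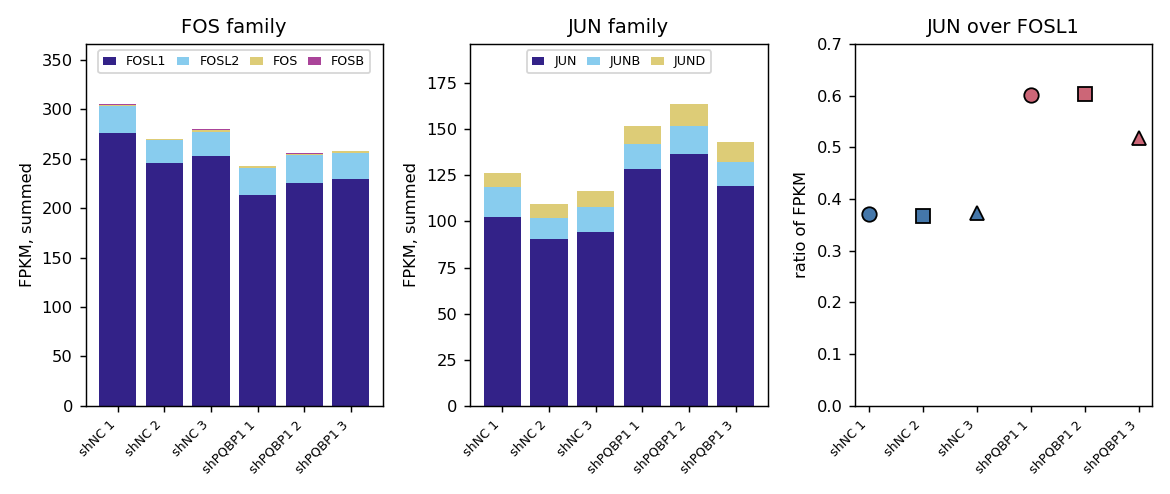
Summed FPKM of the FOS family genes and of the JUN family genes in each sample, stacked by gene, and the ratio of JUN to FOSL1 FPKM, with all axes starting at 0. In these values as deposited, the FOS sums are lower and the JUN sums higher in shPQBP1. The ratio is 0.368 to 0.373 in shNC and 0.519 to 0.604 in shPQBP1.

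ATF3, which cells raise in amino acid shortage, endoplasmic reticulum stress and other stresses, was the member that passed the test. ATF3 (ENSG00000162772, 4 exons in its reference transcript, chr1:212565334-212620777, plus strand) was 5.79, 5.67 and 6.06 FPKM in shNC and 4.38, 3.86 and 3.82 FPKM in shPQBP1. The groups stood clear of each other, and the spread within each was small (5.84 ± 0.20 and 4.02 ± 0.312 FPKM, SD, n = 3). ATF3 fell by 0.53 on the log2 scale (SE 0.09, interval -0.75 to -0.31), to 0.693 of the shNC level (limma, adjusted p = 0.0384). The exact permutation test of the 6 samples gave p = 0.1 for ATF3, JUN, JUND and FOSL1 alike, the smallest that 3 against 3 allows. The call of ATF3 was lost in each of the 6 fits that left out 1 sample (limma, adjusted p = 0.0505 to 0.167, log2 fold change -0.59 to -0.50), and its adjusted p was 0.0554 with the GC and length trend removed.

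The promoter of ATF3 that starts its longer transcripts (chr1:212565157-212565456, plus strand) is shown because it holds, at -123 to -116 from the start, the same TGACATCA octamer (in capitals) as the proximal site of JUN. A second ATF3 promoter listed in RefSeq (chr1:212614768-212615067, plus strand) held none of the motifs searched. The search covered these windows only, so it does not describe any other start site of ATF3.
ATF3: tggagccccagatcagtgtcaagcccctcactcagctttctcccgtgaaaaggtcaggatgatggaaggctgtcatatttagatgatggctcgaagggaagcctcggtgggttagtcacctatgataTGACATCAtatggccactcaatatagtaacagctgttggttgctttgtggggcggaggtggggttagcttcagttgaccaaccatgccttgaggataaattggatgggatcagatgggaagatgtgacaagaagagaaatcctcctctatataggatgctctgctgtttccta

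EGR1 did not differ detectably between the groups. EGR1 (ENSG00000120738, 2 exons, chr5:138465479-138469303, plus strand), a growth factor response gene, was 30.52, 26.4 and 32.52 FPKM in shNC and 29.61, 30.97 and 27.97 FPKM in shPQBP1. The groups overlapped throughout, and the log2 fold change was -0.01 (SE 0.10, interval -0.25 to 0.23; limma, adjusted p = 0.955).

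The EGR1 promoter (chr5:138465229-138465528, plus strand) is shown because it was the one with CArG boxes among the windows of the 8 genes searched. Its capitals mark an EGR1 site, GCGCGGGCG, at -198 to -190, and a pair of CArG boxes, the sites of serum response factor SRF, CCATATTAGG at -105 to -96 and CCATATATGG at -83 to -74. A CArG box stood in 1.29% of all promoters of this length and the EGR1 site GCGNGGGCG or its reverse CGCCCNCGC in 9.43%. SRF itself, the factor that binds CArG boxes, was 8.54, 8.25 and 7.33 FPKM in shNC and 5.71, 6.49 and 6.94 FPKM in shPQBP1, a log2 fold change of -0.33 that did not pass (limma, adjusted p = 0.146).
EGR1: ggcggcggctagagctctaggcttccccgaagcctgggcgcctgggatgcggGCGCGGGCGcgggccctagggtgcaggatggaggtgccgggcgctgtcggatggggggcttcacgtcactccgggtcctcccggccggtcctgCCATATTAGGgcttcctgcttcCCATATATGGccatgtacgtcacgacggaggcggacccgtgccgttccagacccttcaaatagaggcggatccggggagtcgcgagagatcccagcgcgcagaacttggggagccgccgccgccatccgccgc

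MYC differed far more between samples of the same group than between the groups. MYC (ENSG00000136997, 3 exons in its reference transcript, plus strand of chromosome 8) was 32.12, 1.31 and 1.46 FPKM in shNC and 13.95, 1.81 and 1.28 FPKM in shPQBP1. Both samples numbered 1 were high, 22 times the highest other shNC sample and 7.71 times the highest other shPQBP1 sample, and the other 4 lay between 1.28 and 1.81 FPKM. The log2 fold change between the groups was -0.31 with an SE of 1.45 (interval -3.84 to 3.21; limma, adjusted p = 0.907). It was 1.17 without shNC sample 1 and -1.35 without shPQBP1 sample 1. Without both samples numbered 1, a choice made after the values were seen, it was 0.13 (adjusted p = 0.755).

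The split of MYC was also ranked among all tested genes. The measure was made for its pattern after its values were seen, so a high rank was likely from the start. Among 11413 tested genes, MYC had the largest gap between the lower of both samples numbered 1 and the highest of the other 4, 2.88 on the log2(FPKM + 0.1) scale, or 7.36-fold. Only 3 genes had a gap of more than 2-fold in this direction, among them MYC and LEPROT (1.56 on the log2 scale), beside 0 genes for the samples numbered 2 and 3 genes for those numbered 3. The SD of MYC within groups was 2.22 on the log2 scale, where the median gene had 0.168 and 36 genes had more.

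**Figure D4:**
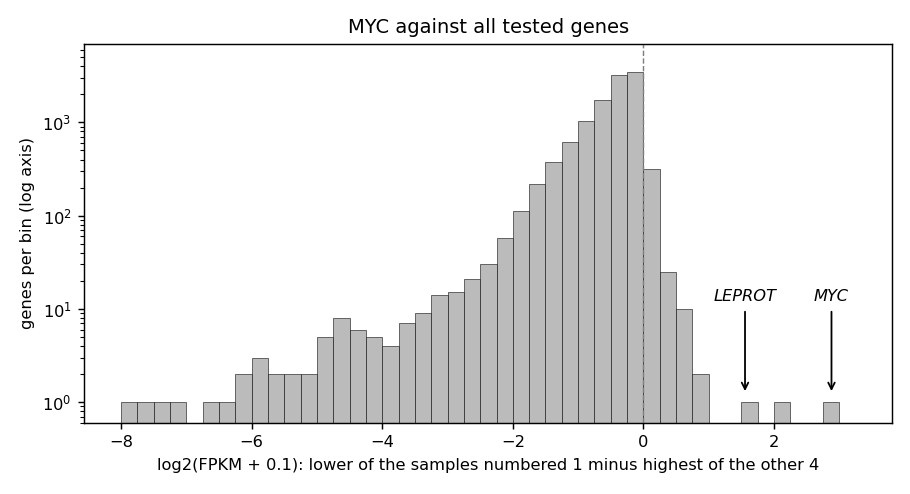
Number of tested genes (log axis) by the difference in log2(FPKM + 0.1) between the lower of both samples numbered 1 and the highest of the other 4 samples. Most genes lie below 0, 3 lie above 1, and MYC is the furthest to the right at 2.88, while 2 genes below -8 fall outside the axis. The measure was chosen after the values of MYC were seen.

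The split was not seen in PVT1, the long noncoding RNA gene next to MYC on the same strand, which was 3.71, 3.73 and 3.76 FPKM in shNC and 3.73, 3.68 and 3.24 FPKM in shPQBP1. CASC11, which overlaps MYC on the opposite strand, was at most 0.05 FPKM, too low to show a split. MYC also has a set of well-known target genes, and the 37 tested genes of the MYC activated list, mostly nucleolar and nucleotide synthesis genes, were followed per sample. Their median log2 difference from each gene's own mean over the 6 samples was 0.14, 0.03 and 0.04 in shNC samples 1 to 3 and -0.09, -0.01 and -0.05 in shPQBP1 samples 1 to 3. The median was thus highest in one MYC-high sample and lowest in the other.

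As a description over 6 samples that share their libraries, the genes whose log2 levels followed MYC most closely were RRM2 (Pearson r = 0.992), the ribonucleotide reductase subunit needed for DNA synthesis, the pseudogene RPS23P8 (0.991) and NFS1 (0.984), which supplies sulfur for iron-sulfur clusters. RRM2 was 35.81 and 28.2 FPKM in the samples numbered 1 and 17.6 to 18.48 FPKM in the other 4. Closest to EGR1 were GADD45A (0.978), ZNF212 (0.970) and STUB1 (0.957). RNF144B (0.997), IDNK (0.997) and IRAK2 (0.995) were closest to JUN, and UBE2M (0.999), GATC (0.998) and SMAP2 (0.997) to FOSL1.

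The genes around these factors were taken from 10 lists of textbook partners, regulators and targets. Counting each gene once, 154 list genes were tested and 12 passed at an adjusted p under 0.05 in limma (9 higher, 3 lower), which is 7.79% beside the 2.91% of all tested genes. The lists were chosen with earlier results of these data known, so the larger share is not a result about them. When only the 3661 genes with a mean of at least 10 FPKM were fitted and adjusted, 211 passed in limma. That is a different fit and adjustment from the one behind the 2.91%. The lists share some genes with each other, and no test compares them with the remainder of the table.

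No partner of the members passed in limma. Of 19 other basic leucine zipper partners and competitors of AP-1, 18 were in the table, 17 were tested, and the median log2 fold change was -0.02. An unadjusted p under 0.05 was reached by 2 that were higher and 2 that were lower. Here and for the lists below, such counts stand beside the 23.6% of all tested genes that reached it in limma. The smallest p belonged to BATF2, 3.54, 3.23 and 2.85 FPKM in shNC and 1.96, 2.29 and 1.96 FPKM in shPQBP1 (log2 fold change -0.61; limma, adjusted p = 0.0597). BATF2 is a basic leucine zipper protein of the BATF family, counted here among the partners and competitors. In the EGR list 2 of 6 genes were tested, the corepressors NAB1 (0.86; adjusted p = 0.218) and NAB2 (-0.07; adjusted p = 0.848), and 0 had an unadjusted p under 0.05. In the MYC network 10 of 13 were tested with a median of -0.18 and 1 gene, higher, at an unadjusted p under 0.05, led by the MAX partner MXI1 (0.92; adjusted p = 0.142) and by MXD3 (-0.29; adjusted p = 0.245), both antagonists of MYC.

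Among 21 tested kinases and factors upstream, ELK3 and RPS6KA2 rose and none that was lower passed, with a list median of -0.05. An unadjusted p under 0.05 was reached by 3 genes on the higher side and 6 on the lower side. ELK3, an ETS factor that acts with SRF at serum response elements and often represses there, was 18.65, 24.43 and 22.98 FPKM in shNC and 72.34, 70.9 and 74.45 FPKM in shPQBP1. This rise of 1.73 on the log2 scale (SE 0.11; limma, adjusted p = 0.00389) passed in all 6 fits that left out 1 sample. RPS6KA2, a kinase of the RSK family downstream of ERK, was 1.09, 1.08 and 1.17 FPKM in shNC and 1.76, 1.88 and 1.85 FPKM in shPQBP1 (0.67; limma, adjusted p = 0.0412). Its call was lost with any 1 sample left out (adjusted p from 0.0503).

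Of the 13 genes of mRNA decay and protein turnover, all tested, the AU-rich element binding proteins ZFP36L1 and ZFP36L2 rose and none that was lower passed, although 3 were lower with an unadjusted p under 0.05. These proteins bind AU-rich elements in short-lived mRNAs and speed their decay. ZFP36L1 was 27.03 ± 1.67 FPKM in shNC and 38.77 ± 0.531 FPKM in shPQBP1 (SD, n = 3; 0.52; limma, adjusted p = 0.025). ZFP36L2 was 6.417 ± 0.169 and 8.903 ± 0.146 FPKM (SD, n = 3; 0.47; limma, adjusted p = 0.0306). Each passed in 1 of the 6 fits that left out 1 sample. The median of the list was 0.05.

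None of 25 tested other immediate early genes passed in limma, while an unadjusted p under 0.05 was reached by 5 that were higher and 2 that were lower, and the median was -0.03. The smallest p belonged to ARC, a cytoskeletal gene best known in neurons, at 2.47, 1.87 and 2.49 FPKM in shNC and 1.22, 1.53 and 1.23 FPKM in shPQBP1 (-0.73; limma, adjusted p = 0.073). CCN2, a matrix protein of the connective tissue growth factor type, was 132.74, 117.14 and 114.61 FPKM in shNC and 149.61, 166.01 and 150.95 FPKM in shPQBP1 (0.36; adjusted p = 0.0818). Leaving out 1 sample at a time brought CCN2 under the threshold in 1 of 6 fits (adjusted p = 0.0393).

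The AP-1 target list had 3 genes that rose and 1 that fell among 17 tested, with a median of 0.12. SPP1, the secreted matrix protein osteopontin, rose from 16.01 ± 1.52 to 46.2 ± 3.61 FPKM (SD, n = 3; 1.52; limma, adjusted p = 0.00389) and passed in all 6 fits that left out 1 sample. The cytokine IL6 rose from 6.1 ± 0.357 to 9.923 ± 0.337 FPKM (SD, n = 3; 0.69; limma, adjusted p = 0.0181). CXCL8, a neutrophil chemokine, rose from 119.4 ± 3.95 to 167 ± 4.0 FPKM (SD, n = 3; 0.48; limma, adjusted p = 0.0189), against 0.21 (adjusted p = 0.457) with the GC and length trend removed. IL11, another cytokine of the IL6 family, fell from 2.263 ± 0.425 to 0.873 ± 0.179 FPKM (SD, n = 3; -1.28; limma, adjusted p = 0.0343), a call lost with any 1 sample left out. IL6 and CXCL8 each passed in 1 of those 6 fits.

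Of 10 tested EGR1 targets, F3 rose and PDGFA fell, with a median of 0.04. F3, tissue factor, the starter of coagulation, was 53.07, 68.85 and 68.77 FPKM in shNC and 124.35, 131.84 and 118.11 FPKM in shPQBP1 (0.98; limma, adjusted p = 0.0187, under the threshold in 2 of 6 fits that left out 1 sample). PDGFA, a growth factor for mesenchymal cells, was 3.15, 2.53 and 3.02 FPKM in shNC and 1.56, 1.8 and 1.47 FPKM in shPQBP1 (-0.81; limma, adjusted p = 0.0358, lost with any 1 sample left out).

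Of 37 tested MYC activated genes, NOLC1 rose and MYBBP1A fell, and the median was -0.11. NOLC1, a nucleolar scaffold protein, was 28.66, 22.86 and 23.73 FPKM in shNC and 52.22, 61.55 and 53.76 FPKM in shPQBP1 (1.16; limma, adjusted p = 0.0111, under the threshold in 2 of 6 fits that left out 1 sample). MYBBP1A, a nucleolar protein of ribosomal RNA synthesis, was 8.58, 8.52 and 7.23 FPKM in shNC and 5.2, 5.73 and 4.79 FPKM in shPQBP1 (-0.62; limma, adjusted p = 0.0459, lost with any 1 sample left out). None of the 5 tested MYC repressed genes passed in limma, 1 reached an unadjusted p under 0.05, and the median was -0.12. That 1 was CDKN1A, the p21 cell cycle inhibitor, at 101.15, 87.08 and 87.01 FPKM in shNC and 18.76, 79.36 and 16.95 FPKM in shPQBP1 (-1.64; limma, adjusted p = 0.166). Without shPQBP1 sample 2, which stood near the shNC level, its adjusted p was 0.00928 (limma). This was the only 1 of the 6 fits leaving out 1 sample in which CDKN1A passed, and its adjusted p reached 0.383 (limma). NDRG1, a stress response gene, was 12.27, 9.79 and 9.99 FPKM in shNC and 8.97, 9.14 and 8.92 FPKM in shPQBP1 (-0.24; adjusted p = 0.241).

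**Figure D5:**
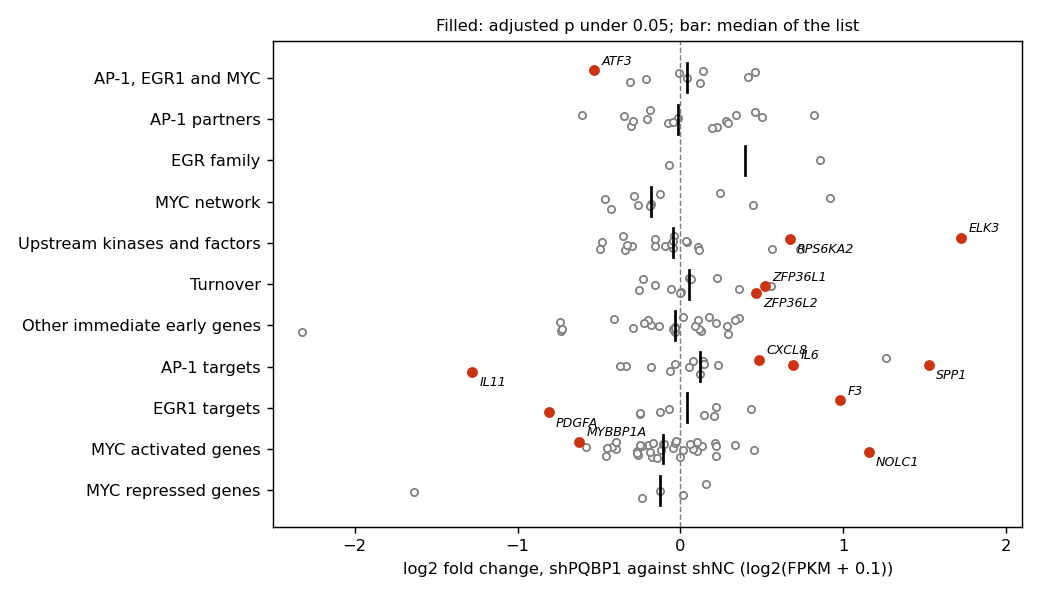
Log2 fold change of shPQBP1 against shNC for each tested gene of the 10 lists and, in the top row, for the 9 tested members, 1 row per list, with filled points for genes at an adjusted p under 0.05 in limma and a bar at the list's median. ELK3 at 1.73 and SPP1 at 1.52 lie furthest to the right among the filled points and IL11 at -1.28 furthest to the left, and the list medians lie between -0.18 and 0.39.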

How the data were processed

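Poly(A) RNA of the 6 HEY samples was sequenced as paired ends on an Illumina HiSeq instrument. The submitters' notes name hg38, HISAT2 (version 2.2.0), SAMtools (version 1.9), StringTie (version 1.3.0) and edgeR. The annotation release and strandedness are not given in the sources used here. The FPKM values were used as deposited by the authors, per gene and sample, rounded to 2 decimals. The columns of the authors' own comparison (fold change, p and q) were not used. No read-count steps were found in the low FPKM values, so the depth is unknown and no counting error is given.

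Genes were tested on log2(FPKM + 0.1), which understates changes of low genes, where their mean FPKM was at least 1 (11413 of 32679). The comparison of shPQBP1 with shNC used limma 3.58.1 in R 4.3.3. Its moderated test (lmFit, then eBayes allowing the variance to follow the mean) was two-sided, and p-values were adjusted by Benjamini-Hochberg over all tested genes. Single members were also compared with a two-sided exact permutation test. The procedure was tested on simulated data. edgeR, the tool of the study, needs counts and was not used. P-values measure the spread between samples, which may be technical.

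The named genes are the 10 members, PQBP1, up to 3 genes with the largest rise and 3 with the largest fall among those passing in each list, otherwise the 2 with the smallest p, and the 3 closest in level to MYC, EGR1, JUN and FOSL1. Neighbouring or overlapping genes, SRF, LEPROT, IER2 and MAPK14 lie outside this rule and were chosen after their values were seen. The members and lists were chosen with earlier results of these data known. Erythroid markers, BATF, EGR4, TGFB1 and CD3E were not analysed here, and some genes that the rule or a count would name are not reported here. Alternatives were median-of-ratios scaling, quantile normalization, other filters (genes above 0, at least 10 FPKM), pseudocounts of 1 and 0.01, a variance prior without a trend, a replicate block, removal of the dependence on GC content and transcript length (a spline with 5 degrees of freedom, GENCODE release 44 models), and each sample left out in turn. Leaving out both samples numbered 1 was added after the data were seen.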

Additional observations from a re-analysis of the deposited data

How the results depend on the processing

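Depth is unknown, so low genes such as FOS and FOSB carry an error that cannot be split into counting and biology. The count of members passing in limma was 1 in the reported setting, 2 after quantile normalization, 3 with the GC and length trend removed, and 0 when genes above 0 were tested, with the replicate block, or without both samples numbered 1. Leaving out 1 sample gave 0 to 1. No setting gave a member with a 2-fold change and an unadjusted p under 0.05. The 12 list genes became 7 with genes above 0, 26 with the trend removed, 4 without both samples numbered 1, and 2 to 16 with 1 sample left out. ATF3 was -0.53 (adjusted p = 0.0784) with genes above 0, -0.45 (0.0554) with the trend removed, -0.60 (0.0774) without both samples numbered 1, and -0.59 to -0.50 with 1 left out. JUN passed at 0.43 after quantile normalization, 0.42 among genes of at least 10 FPKM and 0.55 with the trend removed. With 1 left out, JUN ranged from 0.37 to 0.47 and passed in 1 of the 6 fits. With the trend removed, JUNB (0.27) and JUND (0.69) passed, and EGR1 was 0.11. Without both samples numbered 1, EGR1 was 0.006 and MYC 0.13. With 1 left out, EGR1 ranged from -0.095 to 0.055, FOS from -0.012 to 0.262, JUNB from -0.065 to 0.161 and MYC from -1.35 to 1.17, signs that turned while none passed. The cause of these shifts was not tested.

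Same-numbered samples shared only a number. With the number as a replicate block, no gene of the 11413 passed in limma (332 without it, 1840 against 2689 at an unadjusted p under 0.05), so 0 members and 0 list genes passed, with ATF3 at -0.53 (adjusted p = 0.228) and PQBP1 at -2.04 (0.0686). The deviations of same-numbered samples correlated at -0.186, -0.138 and -0.011, and no shNC sample correlated best with the shPQBP1 sample of its number. Over all tested genes, 313 passed after median-of-ratios scaling, 417 after quantile normalization, 190 of those above 0, 211 of those of at least 10 FPKM, 924 with the trend removed (571 higher, 353 lower), 78 without both samples numbered 1, and 30 to 464 with 1 sample left out.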

Other observations

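MYC was not alone in splitting a group. Of 4302 tested genes that reached 10 FPKM in some sample, 55 had a highest value more than 5 times the lowest within a group. IER2, an immediate early gene encoding a nuclear protein and named here after its values were seen, was 23.07, 17.79 and 18.93 FPKM in shNC and 1.04, 27.82 and 1.88 FPKM in shPQBP1, a range of 26.8-fold within shPQBP1 beside 24.5-fold for MYC within shNC. Within its group, the sample that stood apart was shPQBP1 sample 2, for IER2 as for CDKN1A (18.76, 79.36 and 16.95 FPKM), and not sample 1 as for MYC. For both genes it was shPQBP1 samples 1 and 3 that lay below every shNC sample. The log2 fold change of IER2 was -2.32 (limma, adjusted p = 0.269). IER2 passed in 1 of the 6 fits that left out 1 sample, the fit without shPQBP1 sample 2 (-3.73; limma, adjusted p = 0.0232). In the other fits its adjusted p reached 0.54 (limma). That sample was singled out after its values were seen. MAPK14, the p38 alpha kinase, also stood apart in shPQBP1 sample 2, at 14.22 FPKM against 4.29 and 4.72 FPKM in samples 1 and 3 and 4.11 to 4.87 FPKM in shNC.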
